A study of Mus musculus with 10 samples.

Results

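The genes described are 10 genes of nitric oxide and cyclic GMP (cGMP) signalling, chosen by name from the table of 23195 genes that compares the hearts of *Nos1ap* null and wild-type mouse embryos. They are the nitric oxide synthases *Nos1*, *Nos2* and *Nos3*, the enzyme *Ddah1*, the soluble guanylate cyclase subunits *Gucy1a3* and *Gucy1b3*, the kinase *Prkg1*, and the phosphodiesterases *Pde2a*, *Pde5a* and *Pde9a*. All 10 are in the table, in 11 rows, since *Pde2a* has 2. Hearts of 10 male embryos on the C57BL6/J background, 5 wild-type and 5 *Nos1ap* null, were taken at embryonic day 13.5, and the polyA RNA of each was sequenced. The null mice were homozygous for the tm1d allele, which lacks exon 4 of *Nos1ap* in every tissue after recombination with CMV-Cre, so a difference in the heart cannot be told apart from an effect of the loss elsewhere in the embryo. The wild-type embryos had no targeted allele, and the sources name no treatment. The litters of the embryos are not given in the sources used here.

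Nitric oxide synthases make nitric oxide from arginine: the neuronal enzyme *Nos1* and the endothelial enzyme *Nos3* are switched on by calcium and calmodulin, and *Nos2* is the inducible enzyme of immune cells. Nitric oxide binds the haem of soluble guanylate cyclase, a dimer of an alpha and a beta subunit, which then makes cGMP; cGMP acts through protein kinase G and is broken down by phosphodiesterases. *Nos1ap* encodes an adaptor protein that binds the PDZ domain of the neuronal synthase, and the comparison of the genotypes asks whether the heart transcriptome changes when the adaptor is lost.

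Values are normalized counts, that is, read pairs of a gene divided by the size factor of the library. The deposited means of the groups are printed with enough digits for the whole read pairs of each library to be derived from them, and libraries are numbered from 1 to 5 within a genotype by falling size factor, which is not the replicate number of the labels. The estimated depth was 1.13e+07 to 1.40e+07 read pairs per library. *Nos1ap* itself had 147, 133, 126, 161 and 153 normalized counts in wild-type libraries 1 to 5 and 42.3, 42.2, 44.4, 31.1 and 39.2 in the null libraries, a log2 fold change of -1.83 ± 0.12 (SE, limma adjusted p = 1.98e-08), in the direction of the labels. All 9 cardiomyocyte markers looked for were present, with summed means of 396556 normalized counts in wild-type and 404921 in null hearts. Wild-type library 3 stood apart: its 6 neuronal and glial markers with counts summed to 812 normalized counts, against 154 to 206 in the other wild-type libraries and 151 to 192 in the null libraries. The summed means of 7 erythroid markers were 132750 in wild-type and 199026 in null hearts, and the part of either marker list in the results was not tested. The smooth muscle and pericyte list (8 of 8 markers present) had summed means of 22726 in wild-type and 21847 in null hearts. The largest part of that sum was *Acta2*, with 12534 and 12154. *Rgs5*, without settled counts, had 697 and 496, and *Myh11* 84.0 and 44.1, and all 8 means were lower in the null hearts. Summed means of the epicardial and mesenchymal list (8 of 8) were 27273 and 26466. Those of lung and other epithelium (4 of 6, without *Nkx2-1* and *Sftpc*) were 619 and 590. Most of the epithelial sum was *Krt19*, with 608 in wild-type library 3, within the range of the others. The low markers *Cdh1*, *Epcam* and *Cldn6* were highest in that library, at 16.3, 13.2 and 4.07 normalized counts, against at most 4.14, 6.03 and 1.03 in any other.

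None of the 10 genes passed the test between the genotypes. Soluble guanylate cyclase subunit *Gucy1a3* had the smallest limma p of them, with a mean 11.4% higher in the null hearts, while its partner *Gucy1b3* and the endothelial synthase *Nos3* had means within 0.466% and 1.1% of the wild-type means. By the ratio of the means, 4 of the 10 genes were higher and 6 lower in the null hearts, and the median size of the log2 ratio was 0.14, against 0.05 over the 14330 genes with a mean of at least 10. In the limma fit on log2(normalized count + 1) over 11574 genes, 0 of the 7 rows tested were called at an adjusted p under 0.05, where 0.0259% of all genes were called. At an unadjusted p under 0.05, limma gave 0 of these 7 rows and 3.66% of all genes, and limma voom also gave 0 called and 0 at an unadjusted p under 0.05. *Nos1* was below the mean of 10 required, and *Nos3*, *Gucy1a3* and *Gucy1b3* have more than 1 set of counts that gives their mean. With the nearest set used for these 3, limma called 0 of 10 rows. It put 1 of 10, *Gucy1a3*, at an unadjusted p under 0.05, against 3.67% of the 11577 genes tested. Few of those have a mean as high as that of *Gucy1a3*, and its nearest set favours a small spread. *Gucy1a3* had also been seen in earlier results of these data, so the 2 shares are not a like comparison. With the 2 *Pde2a* rows summed, the libraries of the genotypes overlapped for all 10 genes, whereas they did not overlap for 0.821% of all genes. In bulk hearts, fewer cells of a type and less RNA per cell cannot be told apart.

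**Figure D1:**
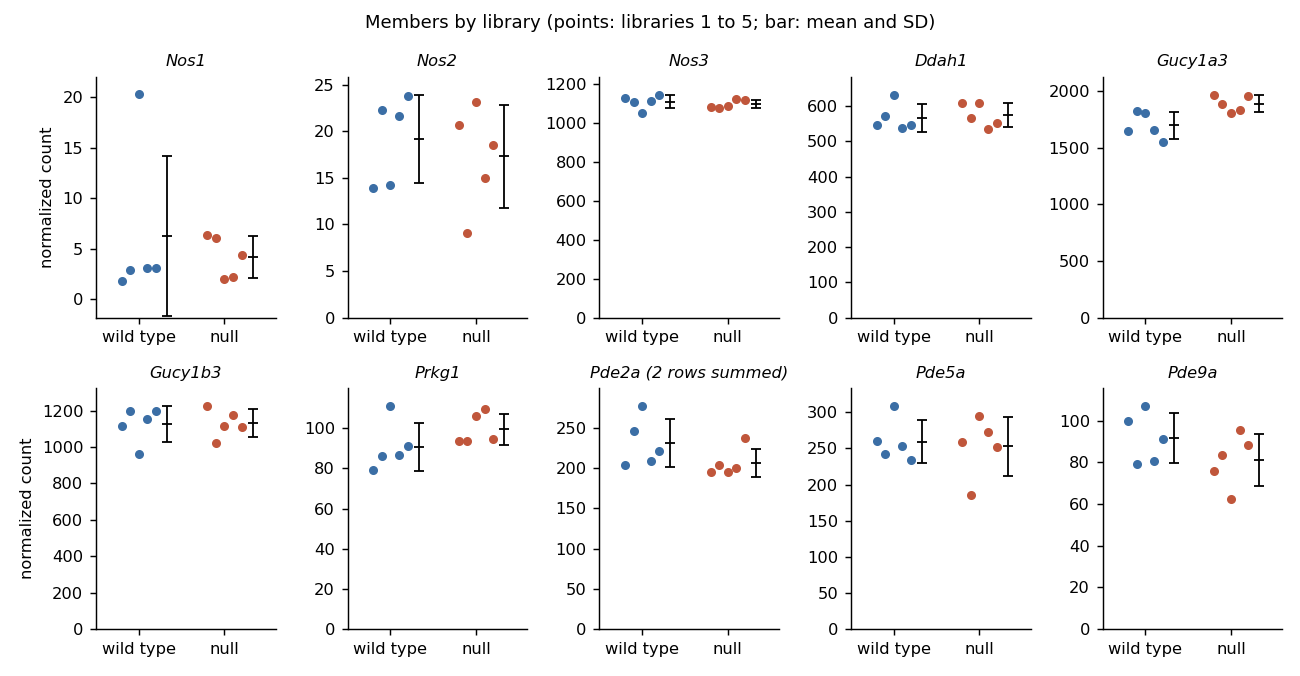
Normalized counts (vertical axes, from 0 or below) of the 10 genes in the wild-type (blue) and *Nos1ap* null (red) hearts, with each point a library in the order 1 to 5 and each bar the mean ± SD of 5 libraries. The genotypes overlap in every panel, and wild-type library 3 stands above the other libraries for *Nos1*, at 20.4.

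**Figure D2:**
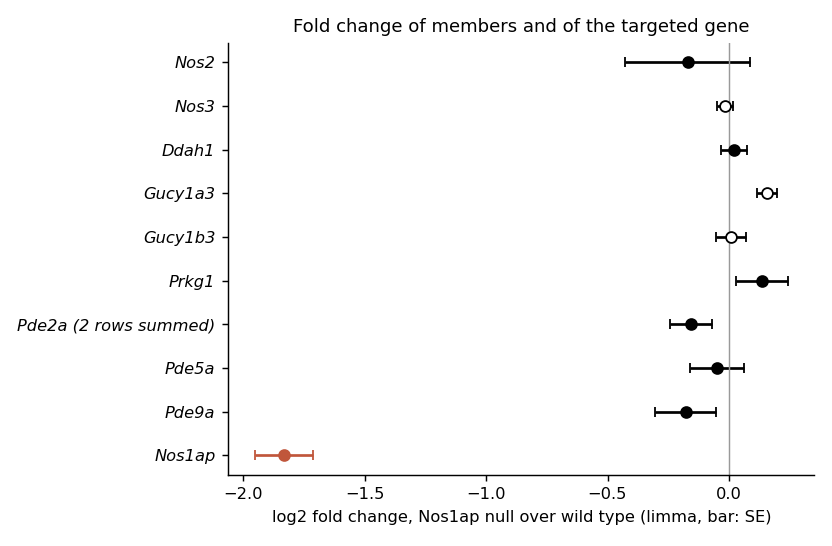
Log2 fold change of the *Nos1ap* null over the wild-type hearts (horizontal axis) for 9 of the genes and for *Nos1ap*, with the SE of the limma fit as bars and open points for genes fitted with the nearest set of counts. *Nos1ap* lies at -1.83, and the 9 genes lie between -0.18 and 0.16.

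Per length, the genes fell into groups far apart in level. Normalized counts per kb of exon in the wild-type hearts were 286 for *Gucy1b3*, 269 for *Nos3* and 244 for *Gucy1a3*, then 142 for *Ddah1*. The phosphodiesterases followed, with 36.5 for *Pde2a*, 26.4 for *Pde5a* and 25.9 for *Pde9a*. *Prkg1* had 8.36, *Nos2* 4.35 and *Nos1* 0.56. The first 3 genes overlapped across the 10 libraries, and *Pde5a* was above *Pde9a* in 7 of 10, so the order among these is not settled beyond the spread. *Pde2a* was above *Pde5a* within each of the 10 libraries, although their ranges over all libraries overlapped. *Ddah1*, *Prkg1*, *Nos2* and *Nos1* were each below the gene before them in all 10 libraries without overlap. For comparison, the median over 13281 protein-coding genes with a mean of at least 10 was 70.9 normalized counts per kb, and 84.5% of those genes were below *Nos3* and 4.47% below *Nos2*. The null hearts kept the same places from *Ddah1* downward, with 144 for *Ddah1*, 32.6 for *Pde2a*, 25.7 for *Pde5a*, 22.9 for *Pde9a*, 9.16 for *Prkg1*, 3.92 for *Nos2* and 0.374 for *Nos1*. At the top they had 288 for *Gucy1b3*, 271 for *Gucy1a3* and 266 for *Nos3*.

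**Figure D3:**
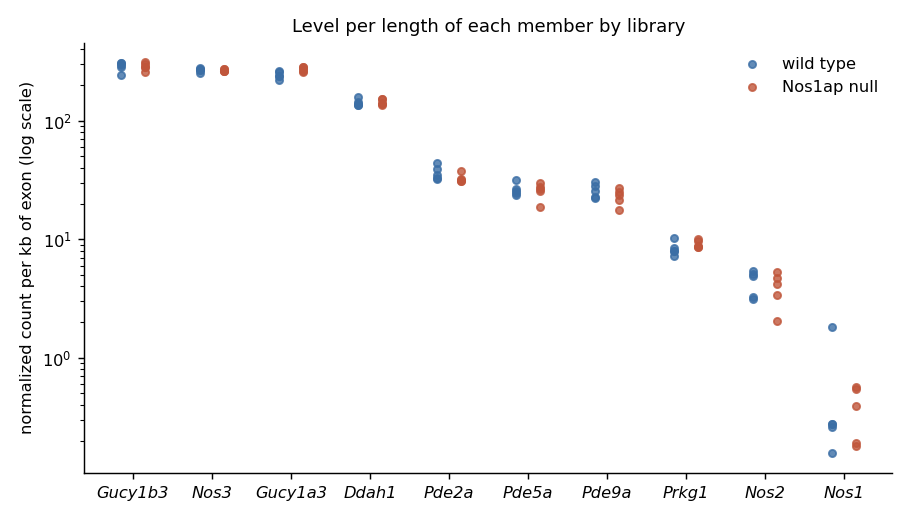
Normalized counts per kb of exon (vertical log axis) of each gene in the 5 wild-type (blue) and 5 *Nos1ap* null (red) hearts, in the order of the wild-type mean. *Gucy1b3*, *Nos3* and *Gucy1a3* lie together at the top, and *Nos1* lies lowest at 0.56 per kb in wild type, raised by a single library.

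*Nos3*, the synthase of endothelium and endocardium, made up 98.2% of the summed level per kb of the synthases in the wild-type hearts, with 1.59% for *Nos2* and 0.204% for *Nos1*. The gene spans 24364810 to 24384474 of chromosome 5 (GRCm38, plus strand). Its normalized counts, by the nearest set, were 1130, 1110, 1052, 1117 and 1143 in wild-type libraries 1 to 5 and 1083, 1080, 1087, 1123 and 1119 in the null libraries. The lowest value of all was that of wild-type library 3, and the ranges overlapped. The means were 1111 ± 34.8 (SD, n = 5) and 1098 ± 20.9, a log2 fold change of -0.02 ± 0.03 (SE, limma adjusted p = 0.998), and over all 9 pairs of sets the exact permutation p ran from 0.532 to 0.913. By the nearest sets, which are those closest to equal expression, the libraries varied by 3.14% and 1.9% of the mean. That was the smallest spread among the 10 genes, and it partly follows from the choice of set. Of the 11 endothelial and endocardial markers, all were present, with summed means of 17077 normalized counts in wild-type and 17484 in null hearts. Among the genes most like *Nos3* over the 10 libraries, by the root mean square difference of centred log2 values, were *Pnrc2*, *Plscr3*, *Zc3h18* and *Map3k4*, at 0.0253 to 0.0291. *Nos3* itself deviated by 0.0347 from its mean on this scale, so the likeness is one of genes that hardly vary.

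*Nos1*, the neuronal synthase that the NOS1AP protein binds, was close to undetected. The gene spans 117781032 to 117958840 of chromosome 5 (plus strand). The read pairs were 2, 3, 20, 3 and 3 in wild-type libraries 1 to 5 and 7, 6, 2, 2 and 4 in the null libraries. Wild-type library 3 held most of the wild-type read pairs, and its normalized count of 20.4 was 7.51 times the mean of the other 4 wild-type libraries. The means were 6.24 ± 7.91 (SD, n = 5) in wild-type and 4.17 ± 2.05 in null hearts (exact permutation p = 0.897, two-sided), lower in the null hearts by the means. Without wild-type library 3 the order turned, with 2.71 ± 0.654 (n = 4) against 4.17 (exact permutation p = 0.222), so at this depth no difference was detectable.

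The library with the high *Nos1* count was the one with high neuronal and glial markers. All 12 markers of that list were present, with summed means of 1679 normalized counts in wild-type and 562 in null hearts. In wild-type library 3, *Chrna3*, a nicotinic receptor subunit of autonomic ganglia, had 67.2 normalized counts, against 0 to 3.27 in the other 9 libraries, and *Sox10*, a factor of neural crest and glia, had 141 there and 6.44 to 16.2 elsewhere. *Myh11*, the smooth muscle marker with counts, had 206 in that library and 28.3 to 69.1 in the others. The 5 genes most like *Nos1* over the 10 libraries, among 10581 protein-coding genes with counts, were *Bsn*, *Luzp2*, *Cntnap2*, *Aatk* and *Clstn3*, with root mean square differences of 0.373 to 0.426 in log2, where *Nos1* itself deviated by 0.834. *Bsn*, a scaffold of the presynaptic active zone, had 148 normalized counts in wild-type library 3 and 20.4 to 42.4 in the other 9. *Cntnap2*, an adhesion protein of axons, had 59.0 there and 8.71 to 21.1 in the others. The likeness is a description over 10 libraries that share 1 extreme point.

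**Figure D4:**
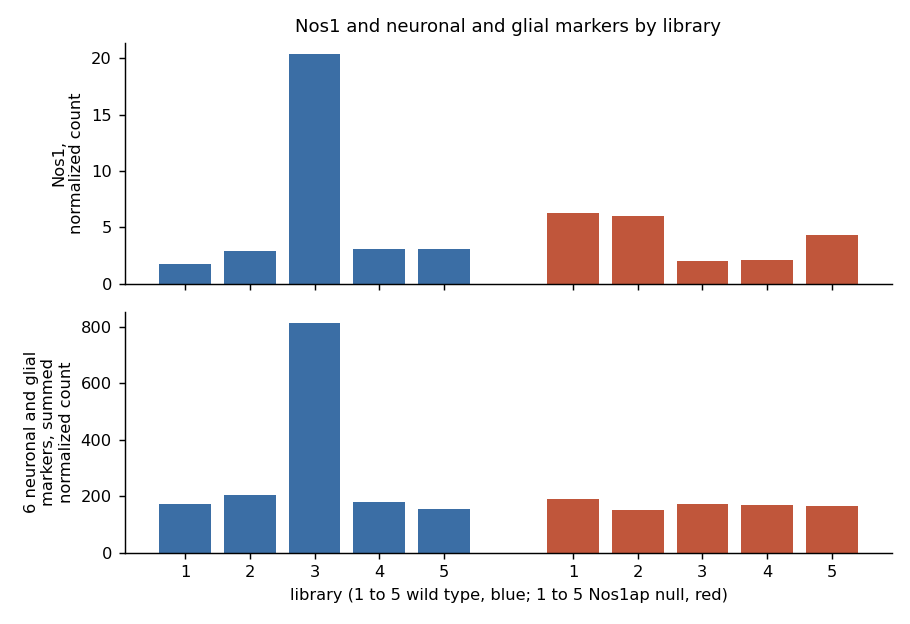
Normalized counts of *Nos1* (top) and of 6 neuronal and glial markers summed (bottom) in each library, wild type in blue and *Nos1ap* null in red. Wild-type library 3 is the highest in both, at 20.4 and 812.

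Wild-type library 3 also held extreme values of the other genes. It was the highest wild-type library for 6 of the 10 genes and the lowest for 2. Of the other 4 wild-type libraries, each was the highest for at most 2, and library 1 was the lowest for 4. Among the null libraries, library 1 was the highest for 4 genes and library 2 the lowest for 5. Relative to the mean of the other 4 wild-type libraries, it had 1.29 times the level of *Prkg1*, 1.26 times that of *Pde2a*, 1.25 times that of *Pde5a*, 1.22 times that of *Pde9a* and 1.15 times that of *Ddah1*. It had 0.936 times the level of *Nos3* and 0.826 times that of *Gucy1b3*, both by the nearest sets, and 0.698 times that of *Nos2*.

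*Nos2*, the inducible synthase, lies on chromosome 11 from 78920787 to 78960254. It had 13.9 to 23.8 normalized counts in the wild-type libraries and 9.05 to 23.2 in the null libraries, with the lowest value in null library 2. The means were 19.2 ± 4.72 (SD, n = 5) and 17.3 ± 5.50 (exact permutation p = 0.571, two-sided), and the log2 fold change was -0.17 ± 0.26 (SE, limma adjusted p = 0.998). With 9 to 23 read pairs per library, a difference of the size of this SE was not detectable. The 9 myeloid markers, of cells that can induce *Nos2*, summed to 949 to 1048 normalized counts in wild-type and 868 to 1019 in null libraries. Most of that sum was *Csf1r* and *Lyz2*. *Itgam* had 21.7 to 48.9 in wild-type and 10.1 to 20.7 in null libraries, without overlap. *Mpo* had 5.81 to 12.2 and 0.9 to 5.37, also without overlap, where 0.821% of all genes tested had none. The genotypes overlapped for the other markers of this list. The part of these cells in the *Nos2* values was not tested.

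*Ddah1*, which degrades the methylarginines that inhibit nitric oxide synthases, lies on chromosome 3 from 145758675 to 145894277. Wild-type libraries had 538 to 632 normalized counts, highest in library 3, and null libraries 536 to 610. The means of 567 ± 38.8 (SD, n = 5) and 575 ± 33.2 gave a log2 fold change of 0.02 ± 0.05 (SE, limma adjusted p = 0.998; exact permutation p = 0.77).

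The subunits of soluble guanylate cyclase, *Gucy1a3* (alpha) and *Gucy1b3* (beta), are named *Gucy1a1* and *Gucy1b1* in newer annotations and lie on the minus strand of chromosome 3, from 82092427 to 82145789 and from 82032006 to 82074689. Since the subunits form a single enzyme from neighbouring genes, the 250 bases before a start of each are shown, from RefSeq on GRCm38.p6. RefSeq lists 2 starts for *Gucy1a1*, and 139 bases of the window shown lie within the gene as annotated in GENCODE M21, which begins further upstream, while 0 bases of the *Gucy1b1* window do. Capitals mark the GC box (GGGCGG), the CCAAT box (CCAAT) and the TATA box (TATAAA), searched on both strands.
*Gucy1a1*, chr3:82145651-82145900: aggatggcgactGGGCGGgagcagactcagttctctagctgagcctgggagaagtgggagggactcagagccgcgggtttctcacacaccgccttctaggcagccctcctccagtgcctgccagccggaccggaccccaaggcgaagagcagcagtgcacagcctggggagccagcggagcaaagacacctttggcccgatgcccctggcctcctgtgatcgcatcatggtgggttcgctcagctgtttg
*Gucy1b1*, chr3:82074712-82074961: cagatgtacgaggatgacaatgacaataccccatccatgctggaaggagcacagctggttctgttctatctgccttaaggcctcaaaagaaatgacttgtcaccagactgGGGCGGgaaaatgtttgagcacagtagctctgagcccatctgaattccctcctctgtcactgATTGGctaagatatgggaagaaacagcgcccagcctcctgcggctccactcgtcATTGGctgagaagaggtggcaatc
The *Gucy1a1* window held 1 GC box and 0 CCAAT boxes, and the *Gucy1b1* window 1 GC box and 2 CCAAT boxes on the minus strand of the window (ATTGG as printed). Among 32851 promoter windows of the same length, 32.7% held a GC box, 33.8% a CCAAT box and 12.4% a TATA box, of which neither window had any. The windows were 64% and 51.2% G and C, against a median of 52.4%.

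*Gucy1a3* was, by the nearest sets, the member with the largest difference relative to its spread. The nearest set is the one closest to equal expression in the libraries of a genotype, which favours a small spread, so this rank partly follows from the choice of set. By the nearest set, the wild-type libraries 1 to 5 had 1646, 1828, 1809, 1657 and 1550 normalized counts, and the null libraries 1967, 1887, 1810, 1833 and 1960. Wild-type library 2 was above the lowest null library, number 3, so the genotypes overlapped, and the other 4 wild-type libraries were below every null library. The means were 1698 ± 118 (SD, n = 5) and 1892 ± 71.8, a ratio of 1.11 that follows from the deposited means whichever set is right. The log2 fold change was 0.16 ± 0.04 (SE, limma unadjusted p = 0.00167, adjusted p = 0.905), which does not pass. The exact two-sided permutation p was 0.0159 for the nearest sets, where the smallest that 5 against 5 libraries allow is 0.00794. The nearest wild-type set has an estimated probability of 59.9%, and over all 15 pairs of sets the exact permutation p ran from 0.0159 to 0.103, with 2 of 15 under 0.05.

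*Gucy1b3* holds the haem that binds nitric oxide. By the nearest set, it had 1114, 1198, 962, 1151 and 1198 normalized counts in wild-type libraries 1 to 5 and 1223, 1021, 1117, 1177 and 1111 in the null libraries. Wild-type library 3 was the lowest of all 10 by this set, but had 1059 to 1290 in the other sets found. The genotypes overlapped. The means of 1125 ± 97.6 (SD, n = 5) and 1130 ± 76.5 gave a log2 fold change of 0.01 ± 0.06 (SE, limma adjusted p = 0.998). Over all 15 pairs of sets, the exact permutation p was 0.929 to 0.984.

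The ratio of *Gucy1a3* to *Gucy1b3* read pairs within a library does not depend on the size factor. By the nearest sets, it was 1.48, 1.53, 1.88, 1.44 and 1.29 in wild-type libraries 1 to 5 and 1.61, 1.85, 1.62, 1.56 and 1.76 in the null libraries. The nearest wild-type sets have estimated probabilities of 59.9% for *Gucy1a3* and 89.2% for *Gucy1b3*, so the ratio in a single library is uncertain. By these sets, the highest ratio of all 10 was that of wild-type library 3, and the other 4 wild-type ratios were below every null ratio. The mean log2 ratio was 0.60 ± 0.20 (SD, n = 5) in wild-type and 0.75 ± 0.10 in null hearts, a difference of 0.15 (exact permutation p = 0.167, two-sided), and over 225 combinations of sets p was 0.0873 to 0.476. Without wild-type library 3, the only wild-type library above a null ratio, the difference was 0.23 (exact permutation p = 0.0159 for the nearest sets). That p follows from the order of the other libraries and adds no support. Per kb of exon, the ratio was 0.851 in wild-type and 0.944 in null hearts, and per kb of the longest protein-coding transcript it turned to 1.03 and 1.15.

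*Prkg1*, the cGMP-dependent protein kinase of smooth muscle and other cells, spans 30564489 to 31765033 on chromosome 19. Its normalized counts were 79.2, 86.2, 111, 86.7 and 91.0 in wild-type libraries 1 to 5 and 93.6, 93.5, 106, 110 and 94.8 in the null libraries. Wild-type library 3 was the highest of all, and the other 4 wild-type libraries were below every null library. The means were 90.8 ± 12.0 (SD, n = 5) and 99.5 ± 7.65, a log2 fold change of 0.14 ± 0.11 (SE, limma adjusted p = 0.998; exact permutation p = 0.19). Without wild-type library 3, the wild-type mean was 85.8 ± 4.91 (n = 4). Since the other 4 wild-type libraries were already below every null library, the genotypes could then no longer overlap. The exact permutation p was 0.00794, the smallest that 4 against 5 libraries allow, which follows from that order and adds no support. *Prkg1* was then 1 of 10 genes without overlap, where 1.38% of all genes had none, and the limma adjusted p stayed at 0.998 (log2 fold change of 0.21 ± 0.10, SE).

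*Pde2a*, a phosphodiesterase that cGMP itself activates, has 2 rows in the table whose gene models overlap on chromosome 7. Row ENSMUSG00000030653.17 is named Gm45837 in GENCODE M21 and spans 101410886 to 101512819, and row ENSMUSG00000110195.1 spans 101421691 to 101512827. Of the exon bases of the first row, 95.6% are also exon bases of the second, and the 184 that are not equal its first exon in number. Of the exon bases of the second row, which has 12 transcripts, 64.3% are shared and 2194 are not. The junctions of the first and second exon, 15 bases on each side, are shown because they differ between the models, with the first exon in capitals.
Gm45837-201, first exon chr7:101410886-101411069: GCTGACCCCCTTTCCgcggggccagcaggt
Pde2a-201, first exon chr7:101421691-101421995: GCGACCGGCTGAGCCgcggggccagcaggt
Pde2a-204, first exon chr7:101450520-101450728: CCACATTTGGGAACGgcggggccagcaggt
The second exon, from 101451402 to 101451468, is the same in these 3 transcripts, and a read pair within the 3955 shared exon bases can belong to either row.

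The read pairs moved between the *Pde2a* rows from library to library. Row ENSMUSG00000030653.17 had 117, 0, 56, 130 and 0 read pairs in wild-type libraries 1 to 5 and 0, 81, 0, 152 and 0 in the null libraries. Row ENSMUSG00000110195.1 had 117, 254, 216, 72 and 214 in the wild-type and 217, 122, 194, 34 and 218 in the null libraries. The first row thus took from 0% to 81.7% of the read pairs, was listed at 0 in 5 of 10 libraries, and was high where the second was low. Each row is therefore uncertain on its own, and their log2 fold changes of -1.18 ± 2.30 and -0.23 ± 0.59 (SE, limma adjusted p = 0.998 for both) carry that spread.

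Summed over the rows, *Pde2a* varied far less. The sums were 204, 246, 277, 208 and 221 normalized counts in wild-type libraries 1 to 5 and 195, 204, 196, 200 and 237 in the null libraries. Wild-type library 3 was the highest, null library 5 stood above the other null libraries, and the genotypes overlapped. The means were 231 ± 30.3 (SD, n = 5) and 206 ± 17.7, with a log2 fold change of -0.16 ± 0.09 (SE, limma unadjusted p = 0.0826, adjusted p = 0.998; exact permutation p = 0.159). The coefficient of variation in wild-type hearts was 13.1% for the sum, against 103% and 45.5% for the rows.

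**Figure D5:**
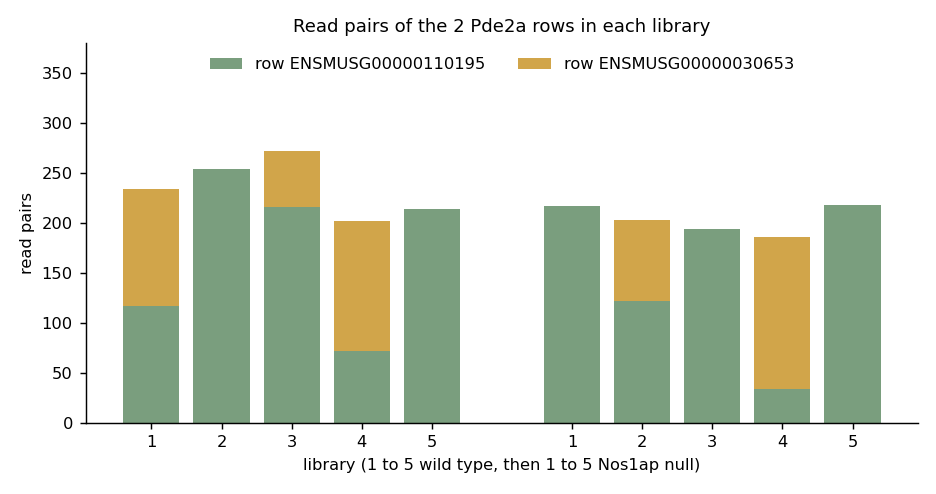
Read pairs (vertical axis, from 0) of the 2 *Pde2a* rows in each library, stacked, with wild-type libraries 1 to 5 at left and *Nos1ap* null libraries 1 to 5 at right. The stack heights stay between 186 and 272 read pairs while the share of the upper row runs from 0% to 81.7%.

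*Pde5a*, the phosphodiesterase that sildenafil inhibits, lies on chromosome 3 from 122728947 to 122859374. The wild-type libraries had 234 to 308 normalized counts, highest in library 3, and the null libraries 185 to 295, lowest in library 2. The means were 260 ± 29.2 (SD, n = 5) and 253 ± 41.4, a log2 fold change of -0.05 ± 0.11 (SE, limma adjusted p = 0.998; exact permutation p = 0.802).

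*Pde9a*, which breaks down cGMP with high affinity, lies on chromosome 17 from 31386210 to 31476310. It had 79.4 to 107 normalized counts in the wild-type and 62.5 to 95.6 in the null libraries. The means were 91.6 ± 12.0 (SD, n = 5) and 81.1 ± 12.7, a log2 fold change of -0.18 ± 0.13 (SE, limma adjusted p = 0.998; exact permutation p = 0.214). Of the summed level per kb of the 3 phosphodiesterases, *Pde2a* held 41.1% in wild-type and 40.1% in null hearts, *Pde5a* 29.7% and 31.7%, and *Pde9a* 29.1% and 28.2%.

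Other genes of the pathway were taken from 4 lists with 73 names, of which 68 were in the table and 32 were tested. *Nos1ap* was the 1 gene called, lower in the null hearts, and 0 of the other 31 were called. At an unadjusted p under 0.05, limma gave 3 of those 31, all higher in the null hearts, against 3.66% of all genes. The lists were chosen with earlier results of these data known, and *Mrvi1*, 1 of the 3, had been seen near the top of them. The share is therefore partly fixed by the choice of genes and is no test of the pathway. The median log2 fold change of the 32 was 0.01, against -0.0042 over all genes tested. In the list of nitric oxide synthesis and control of the synthases, 12 genes were tested, and in cGMP synthesis 3, with 0 genes other than *Nos1ap* at an unadjusted p under 0.05. In cGMP breakdown and export, 1 of 9 was under it, and among cGMP effectors and targets of protein kinase G, 2 of 8.

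*Mrvi1*, a substrate of protein kinase G at the intracellular calcium store, had the smallest limma p of these genes other than *Nos1ap*. It had 223, 199, 166, 194 and 154 normalized counts in wild-type libraries 1 to 5 and 229, 254, 217, 213 and 243 in the null libraries. Wild-type library 1 lay within the null range and the other 4 below it. The means were 187 ± 27.4 (SD, n = 5) and 231 ± 17.6, a log2 fold change of 0.31 ± 0.09 (SE, limma unadjusted p = 0.00294, adjusted p = 0.998; exact permutation p = 0.0238).

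*Hcn4*, the pacemaker channel that cyclic nucleotides open, had 382, 416, 359, 444 and 403 normalized counts in the wild-type and 428, 445, 457, 435 and 454 in the null libraries. The means were 401 ± 32.3 (SD, n = 5) and 444 ± 12.5 (limma log2 fold change of 0.15 ± 0.06, SE, adjusted p = 0.998). *Abcc5*, a transporter that exports cGMP, had means of 1095 ± 57.7 and 1166 ± 20.6 (limma log2 fold change of 0.09 ± 0.04, SE, adjusted p = 0.998). *Pde10a*, a phosphodiesterase of both cyclic nucleotides, had 46.4 to 74.3 normalized counts in the wild-type libraries, highest in library 3, and 41.3 to 56.3 in the null libraries. Its log2 fold change was -0.15 ± 0.15 (SE, limma adjusted p = 0.998).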

How the data were processed

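PolyA RNA of 5 wild-type and 5 *Nos1ap* null hearts was sequenced with a stranded kit, and groups follow the genotype in the labels. Reads were trimmed by the authors (Trimmomatic 0.36) and aligned to GENCODE M10 transcripts on GRCm38 (STAR, called by RSEM 1.2.31). DESeq 1.24.0 then compared the RSEM counts of the genotypes for genes whose counts summed to over 1. The signal values used are the 2 columns of group means deposited by the authors, in normalized counts (read counts over size factors). The table's fold changes, log2 fold changes and p-values hold the authors' own comparison and were not used. The members and lists were chosen with earlier results of these data known, and *Gucy1a3* and *Mrvi1* had been seen near the top of a supplementary table.

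Whole counts per library were derived from the 15 digits of each group mean by a lattice search. The nearest set was taken at an estimated probability of at least 0.99, which settled 99.4% of wild-type and 99.2% of null means under 1000, and 13.6% and 29.9% of those from 1000 to 2000. Sets at 2000 or above were not settled. The depth of 1.13e+07 to 1.40e+07 read pairs was estimated from the size factors, and low genes such as *Nos1* are limited by it. Intervals and SDs cover the spread between embryos of unknown litters.

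limma 3.58.1 (R 4.3.3; trended, robust) tested the genes with counts in both groups and a mean of 10 or more on log2(normalized count + 1), with Benjamini-Hochberg adjustment over all 11574 genes and a threshold of 0.05. This scale understates changes of low genes. A count model was not used, since the deposited values are means. Single genes were compared by exact two-sided permutation of 252 arrangements. Recovery and limma were tested on simulated data. Lengths and positions are those of GENCODE M21 (GRCm38), as unions of exons. *Nos2*, *Nos3* and *Pde9a* have no promoter entry in the RefSeq table used.

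Genes named are the members, *Nos1ap*, of the pathway lists any gene called, the 3 with the smallest limma p and the 3 with the largest absolute log2 ratio at a mean of at least 50, the 5 genes most like *Nos1* and *Nos3*, and markers where a list is described. Not every gene so chosen is reported here. Lists covered nitric oxide synthesis, cGMP synthesis, breakdown and effectors, and markers of cardiomyocytes, endothelium, smooth muscle, epicardium, neurons and glia, myeloid, erythroid and epithelial cells. Alternatives changed the pseudocount (0.5), scaling, form of limma, filter, gene types, thresholds, rule for sets and each library.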

Additional observations from a re-analysis of the deposited data

Results flagged for a closer look

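A value was flagged where the highest or lowest of the 5 libraries of a genotype lay farther from the others than a Dixon critical value of 0.71 of the group's range allows, which chance does in about 1 of 20 groups. Of 70 groups looked at, 12 had a flagged value, and 9 of these values came from wild-type library 3, of which 5 belong to genes chosen for their likeness to *Nos1*.

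Among the members, *Nos1* had 20.4 normalized counts in wild-type library 3, against 1.74 to 3.10 in the other wild-type libraries. The summed *Pde2a* rows had 237 in null library 5, against 195 to 204 in the other null libraries. In the same wild-type library 3, the 6 neuronal and glial markers with counts summed to 812 (154 to 206 in the other 4), *Myh11*, the only smooth muscle and pericyte marker with counts, had 206 (32.9 to 69.1), and *Pde10a* had 74.3 (46.4 to 50.3). The genes most like *Nos1* had 148 for *Bsn*, 36.6 for *Luzp2*, 59.0 for *Cntnap2*, 90.6 for *Aatk* and 105 for *Clstn3* in that library.

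The lung and other epithelium markers summed to 549 in wild-type library 5 (623 to 651 in the other 4), of which *Krt19* made up 540. *Pnrc2*, a gene like *Nos3*, had 1215 in null library 5, against 1171 to 1183 in the other null libraries. The part of the marker lists in the values of the members was not tested.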

How the results depend on the processing

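No paired analysis was possible because the labels do not state that equal replicate numbers in the genotypes are pairs of embryos. The libraries behind the means also cannot be tied to the replicate numbers of the labels. For both reasons, the fit with the replicate block was not run. Under the 19 alternatives of the limma fit, the number of genes called was 3 or 4, and 2 without null library 5; 0 members and 0 pathway genes other than *Nos1ap* were called in any. The smallest adjusted p of a member was 0.877, over the rows with settled counts. *Nos3*, *Gucy1a3* and *Gucy1b3* were fitted only with the nearest sets and all libraries. No limma fit with a library left out includes them, so these fits cannot show how their limma values depend on a library. With each library left out in turn, the number of genes called ran from 2 to 3. The number of members with an exact permutation p under 0.05 was 1 (*Gucy1a3*, nearest sets) and ran from 1 to 2 with a library left out. The second was *Prkg1* without wild-type library 3, its only wild-type library above a null library.

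Of 124 limma values of members under the alternatives, 5 changed sign, and of 120 log2 ratios of means 9 did, each with a library left out. The limma log2 fold change then ran from -0.29 to 0.030 for *Nos2*, from -0.0013 to 0.061 for *Ddah1*, from -0.11 to 0.059 for *Pde5a* and from -0.49 to 0.23 for *Pde2a* row ENSMUSG00000110195.1. The log2 ratio of means ran from -0.82 to 0.62 for *Nos1*, from -0.28 to 0.013 for *Nos2*, from -0.045 to 0.041 for *Gucy1b3*, from -0.10 to 0.055 for *Pde5a* and from -0.0023 to 0.062 for *Ddah1*. The values that turned were those of *Nos1* (0.62), *Gucy1b3* (-0.045) and *Pde5a* (0.031 by the means and 0.015 by limma) without wild-type library 3, *Nos2* (0.013 and 0.030) and *Pde5a* (0.055 and 0.059) without null library 2, *Gucy1b3* (-0.023) and *Ddah1* (-0.0023 and -0.0013) without null library 1, *Ddah1* (-0.00088) without null library 3, and *Gucy1b3* (-0.0084) and *Pde2a* row ENSMUSG00000110195.1 (0.23) without null library 4. Without a change of sign, the limma value ran from -0.24 to -0.090 for *Pde9a*, from 0.089 to 0.21 for *Prkg1* and from -2.33 to -0.39 for *Pde2a* row ENSMUSG00000030653.17, and the log2 ratio of means from -0.22 to -0.091 for the summed *Pde2a* rows, from 0.12 to 0.18 for *Gucy1a3* and from -0.035 to -0.0054 for *Nos3*. By the nearest sets, the difference of the *Gucy1a3* to *Gucy1b3* log2 ratio ran from 0.093 to 0.23. Its exact permutation p was under 0.05 without wild-type library 3 only. The cause was not tested.

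By the longest protein-coding transcript in place of the union of exons, *Gucy1a3* had 360 normalized counts per kb in wild-type hearts, *Gucy1b3* 349 and *Nos3* 269, so the order of these 3 depends on the length used, as does that of *Pde9a* (43.8) and *Pde5a* (34.1). The rule for sets, the nearest sets and the summed *Pde2a* rows were added after the data were seen. Depth limits *Nos1* and *Nos2*. Unsettled sets limit the spread of *Nos3*, *Gucy1a3* and *Gucy1b3* and their values in single libraries or with a library left out, not their means over 5 libraries.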

Other observations

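Of the 68 other pathway genes in the table, 19 had a mean under 10 normalized counts and 9 a mean under 1. Among those under 1, chosen after their values were seen, are *Gucy2c*, the intestinal receptor cyclase, with means of 0.414 in wild-type and 0.618 in null hearts, and *Pde6h*, of cone photoreceptors, with 0.594 and 0.621. Other genes in the list of cGMP breakdown and export had higher counts. *Pde6d*, which only shares the name of the photoreceptor family, had means of 468 and 475. The phosphodiesterase *Pde3a*, which cGMP inhibits, had means of 773 and 803, and *Pde1a*, which calmodulin activates, 308 and 319 (limma adjusted p = 0.998 for these 3).

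A pattern like that of the first *Pde2a* row was rare among the rows with settled counts. The search favours sets close to equal expression, so rows that vary widely can stay unsettled. The share over the whole table is therefore not known. Of 9633 rows with counts in all libraries and at least 50 read pairs in 1 of them, 38 (0.394%) were listed at 0 in at least 1 library. Of these 38 rows, 26 had an absolute log2 ratio of the means plus 1 over 1, against 74 of the 9595 rows without a 0. Rows picked for a 0 beside at least 50 read pairs vary widely, so unequal means partly follow from that choice. The first *Pde2a* row itself had a log2 ratio of means of -0.26.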
